A study of Bos taurus with 29 samples.

Results

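Gene expression was compared between bovine corpus luteum labelled CM_EE_IVF and corpus luteum labelled NC, here called CL-CM-EE-IVF and CL-NC. The comparison takes 6 of the 21 libraries of the study, chosen by their column names in the corpus luteum count table, 3 per group with the numbers R2, R4 and R5 once in each. The labels list 10 of 29 samples for these columns. CL-CM-EE-IVF was read as tissue given medium of endometrial explants that had been cultured with a single in vitro embryo of day 7, and CL-NC as the control, since the labels do not spell out CM or NC. The other corpus luteum groups are CL-CM-EE, read as medium of explants without an embryo, and CL-CM-EE-AI, read as medium of explants with an in vivo embryo. All corpora lutea carry a slaughterhouse label. The age, breed, cycle stage and number of animals, the dose of medium and the time of culture are not stated in the labels, and nothing says whether the R numbers mark animals, so p-values measure only the spread between these samples.

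The corpus luteum forms from the ovulated follicle and secretes progesterone, which keeps the uterus receptive to an embryo. Its large and small luteal cells, which derive from granulosa and theca cells, take up or make cholesterol and turn it into progesterone in mitochondria and smooth endoplasmic reticulum. Around them lie a dense capillary bed, pericytes and a collagen stroma with fibroblasts and immune cells. In cattle, prostaglandin F2alpha from the uterus ends the gland's life, and interferon tau from the elongating conceptus prevents this.

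Library totals ran from 18850723 to 22702830 counts over these 6 and from 16536797 to 25747637 over all 12 of corpus luteum. Mitochondrial transcripts took 50.02% ± 4.52 of the counts in CL-CM-EE-IVF and 52.7% ± 7.30 in CL-NC (SD, n = 3), and the exact permutation test, two-sided, gave p = 0.7. Ribosomal RNA took 16.9% ± 3.63 and 16.7% ± 1.97, with an exact permutation p of 1. The ribosomal RNA genes include those of the mitochondrial genome, which are also counted among the mitochondrial transcripts, so these shares overlap. The smallest p that 3 against 3 libraries allow is 0.1. The tissue label was checked on the genes of progesterone synthesis. HSD3B1, which turns pregnenolone into progesterone, was at 472, 612 and 786 CPM in the controls and 909, 1322 and 819 CPM with embryo medium, always listed here in the order R2, R4 and R5. CL-CM-EE-IVF is also called tissue or libraries with embryo medium, or treated, and CL-NC the controls. Levels are given as CPM, the counts of a library divided by its TMM-adjusted total.

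No gene passed the test. With the R number as a block in a model of all 12 corpus luteum libraries, edgeR's quasi-likelihood test with Benjamini-Hochberg adjustment called 0 of 18939 genes (0%) at an adjusted p under 0.05, and the lowest adjusted p was 0.991. DESeq2 also called 0, with a lowest adjusted p of 0.335. At an unadjusted p under 0.05 stood 817 genes (4.31%), of which 423 (2.23%) were higher and 394 (2.08%) lower in CL-CM-EE-IVF. In this comparison all genes named here have an adjusted p of at least 0.991 by edgeR, so each value below is a measured level or difference and not a call. A gene's 95% interval reached a median of 0.77 to either side of its log2 fold change, and the median over all genes was -0.02. Between the R numbers, the same model called 5063 genes (26.7%). That test took all R numbers at once, with 4 libraries each, so its count and that of the groups are not a like comparison.

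Differences had the same direction in R2, R4 and R5 in 2400 genes that were higher (12.7%) and 2287 that were lower (12.1%) in CL-CM-EE-IVF. The 3 libraries of CL-CM-EE-IVF lay above all 3 of CL-NC in 456 genes (2.41%) and below them in 629 (3.32%). The 3 numbers did not differ by the same amount. The median absolute log2 difference of a gene was 0.42 in R2, 0.52 in R4 and 0.30 in R5.

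The naming rule ranked by p only the genes with a symbol, a group mean of 1 CPM or more and 1 direction in all 3 numbers. Agreement between the numbers was thus fixed by the choice. Among these genes, the 8 higher ones with the lowest p included SMOC2, CDH11 and COL6A1. SMOC2, a secreted calcium-binding protein of the matrix, was at 20.6, 21.6 and 14.96 CPM in the controls and 60.9, 47.7 and 23.3 CPM with embryo medium. All 3 libraries with embryo medium were above all controls, the difference being widest in R2 and narrowest in R5. The log2 fold change was 1.14 (95% interval 0.58 to 1.70), on means of 43.9 ± 19.1 CPM with embryo medium against 19.05 ± 3.58 CPM in the controls (SD, n = 3). CDH11, a cadherin of mesenchymal cells, was at 34.9, 62.97 and 54.9 CPM in the controls and 64.7, 102 and 68.7 CPM with embryo medium. Its groups did not overlap either, by a small margin between the highest control in R4 and the lowest treated library in R2, and the log2 fold change was 0.64 (95% interval 0.28 to 0.99). COL6A1, a chain of the microfibrillar type VI collagen, was at 104, 29.3 and 96.5 CPM in the controls and 157, 74.4 and 126 CPM with embryo medium. The R4 libraries were the lowest of each group, so the groups overlapped although each number went the same way, as the rule required. The log2 fold change of COL6A1 was 0.79 (95% interval 0.35 to 1.22).

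The other 5 genes of this set were TMEM229B (log2 fold change 0.95), PHF8, a histone demethylase (0.73), DTX3, of the Deltex family of ubiquitin ligases (1.13), RIMKLB, which joins glutamate to N-acetylaspartate (0.99), and CCDC170 (0.84). In all 5 the groups overlapped. TMEM229B had the lowest p, at 6.27, 15.8 and 23.2 CPM in the controls and 16.5, 30.6 and 32.5 CPM with embryo medium. The R2 control was the lowest and the R5 treated library the highest, and the difference was widest in R2. PHF8 was at 73.9, 65.5 and 159 CPM in the controls and 119.7, 132 and 219 CPM with embryo medium. Both R5 libraries were higher than every other library of their group.

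The same rule named the 8 lower genes with the lowest p. Of these, CDH23, a cadherin known from the tip links of hair cells, was at 27.8, 23.7 and 66.1 CPM in the controls and 12.8, 15.2 and 20.9 CPM with embryo medium. All treated libraries lay below all controls, and the R5 control stood well above the others. The log2 fold change was -1.20 (95% interval -1.94 to -0.47) and became -0.73 without CL-NC R5. TESK2, a serine and threonine kinase, was at 14.8, 30.2 and 17.05 CPM in the controls and 6.88, 13.2 and 14.8 CPM with embryo medium. Its groups met closely, the R5 treated library lying just below the R2 control, and its log2 fold change was -0.83 (95% interval -1.33 to -0.34). CAPN12, a calpain protease, was at 1.103, 3.31 and 2.301 CPM in the controls and 0.382, 0.121 and 0.471 CPM with embryo medium. Every treated library was lower than every control, at levels under 1 CPM where few reads carry the value, and the log2 fold change was -2.76 (95% interval -4.47 to -1.09).

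The remaining 5 had groups that overlapped. PERM1, known as a muscle regulator of mitochondrial genes, was at 5.72, 34.6 and 17.2 CPM in the controls and 3.696, 9.85 and 5.14 CPM with embryo medium. The R4 control was the highest library, and the log2 fold change was -1.49 (95% interval -2.24 to -0.74). KCNMB4, an accessory subunit of the large-conductance potassium channel, was at 7.82, 19.1 and 15.3 CPM in the controls and 3.87, 7.51 and 8.27 CPM with embryo medium. The treated library was below the control in each number, which the rule required, and the log2 fold change was -1.1 (95% interval -1.73 to -0.48). WBP2NL (-1.37), SHISA6, an auxiliary protein of glutamate receptors (-0.84), and SH3BGRL2 (-0.61) had log2 fold changes below 0 as well.

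**Figure D1:**
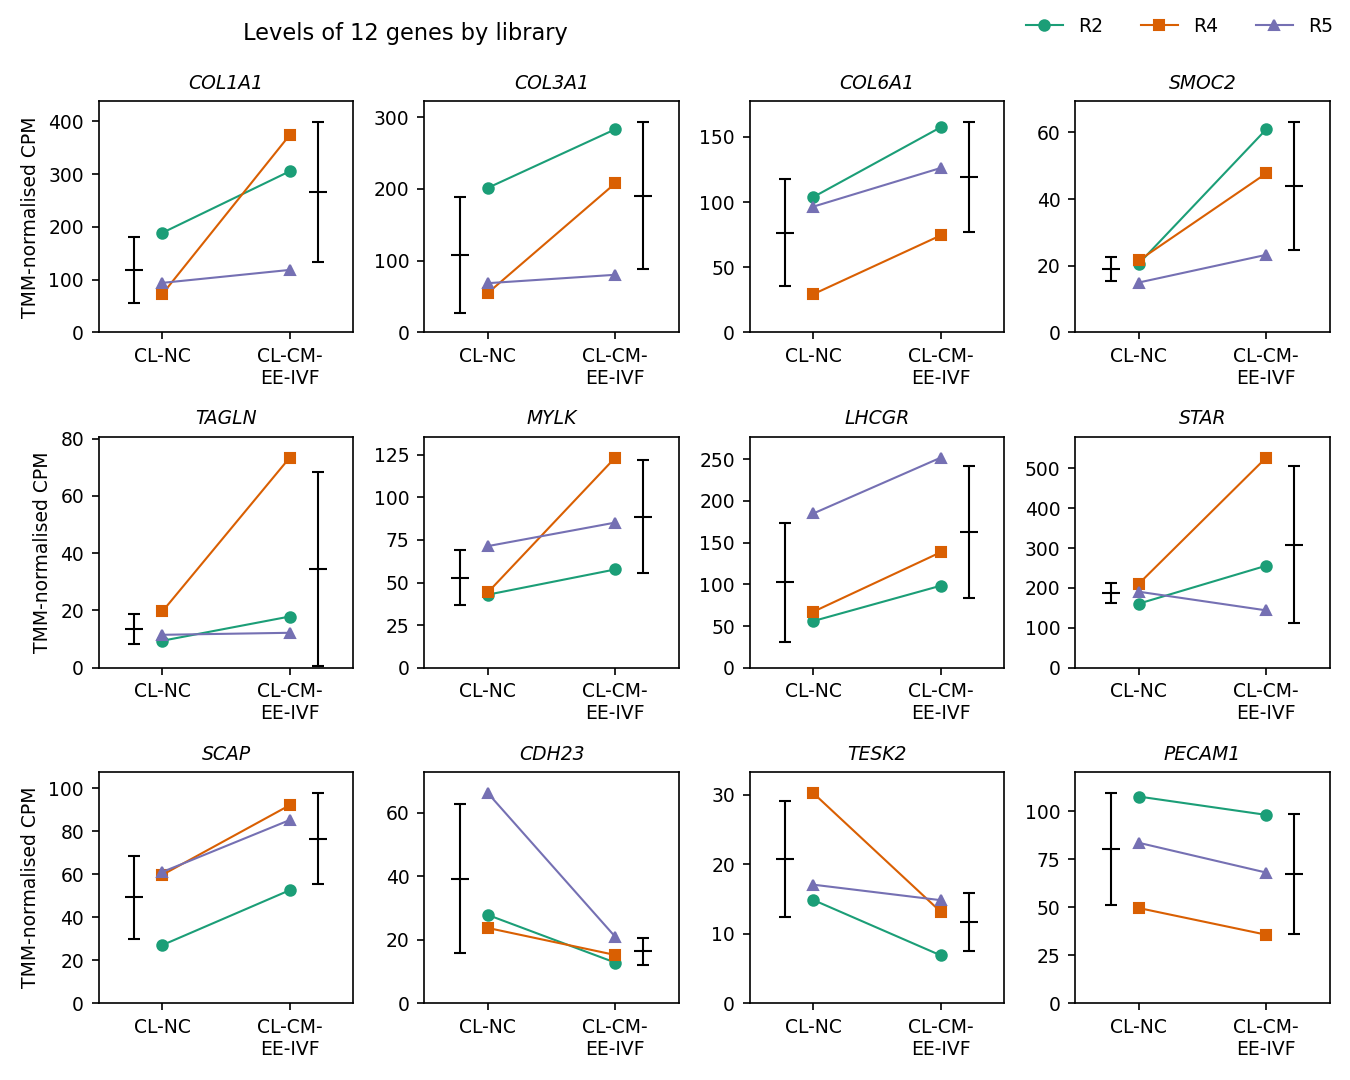
TMM-normalised CPM (vertical axes, each on its own scale) of 12 genes in the 3 CL-NC and 3 CL-CM-EE-IVF libraries, with lines joining the libraries of one R number and black bars giving mean ± SD (n = 3). SMOC2, CDH23 and TESK2 do not overlap between groups, SMOC2 lying between 14.96 and 21.6 CPM in CL-NC, STAR is lower in R5 and higher in R2 and R4, and for COL1A1 and TAGLN the R4 line is the steepest.

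Collagen genes stood mostly above 0. Of the 24 fibrillar and network collagen genes tested, 9 were higher and 0 lower at an unadjusted p under 0.05, against 2.23% of all genes that were higher, and 13 were higher in all 3 numbers, against 12.7% of all genes. The median log2 fold change was 0.54, against -0.02 over all genes, and the medians within numbers were 0.27 in R2, 0.96 in R4 and 0.26 in R5. No member passed the adjusted test. COL1A1, the main chain of type I collagen, was at 189, 72.5 and 93.9 CPM in the controls and 305, 374 and 118 CPM with embryo medium. The treated library was higher in each number, by far the most in R4, and the R5 treated library lay below the R2 control. Means were 266 ± 132 CPM with embryo medium against 118 ± 61.9 CPM in the controls (SD, n = 3), and its log2 fold change was 1.21 (95% interval 0.48 to 1.93).

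COL1A2, the partner chain of type I collagen, was at 126, 31.5 and 54.1 CPM in the controls and 179, 159.6 and 64.8 CPM with embryo medium. The pattern was that of COL1A1, with the R2 control above the R5 treated library. Its log2 fold change was 1.07 (95% interval 0.36 to 1.77). COL3A1, the chain of type III collagen, was at 202, 54.9 and 68.6 CPM in the controls and 283, 208 and 80.3 CPM with embryo medium, and its log2 fold change was 0.88 (95% interval 0.27 to 1.49). COL6A2, a second chain of type VI collagen, was at 64.1, 34.2 and 54.5 CPM in the controls and 89.7, 62.6 and 65.3 CPM with embryo medium, and its log2 fold change was 0.54 (95% interval 0.18 to 0.90). Here R2 and R4 differed more than R5, and the R2 control lay between the R4 and R5 treated libraries. With the 4 libraries of R4 left out, a setting added after the data were seen, the log2 fold changes were 0.52 for COL1A1, 0.38 for COL1A2 and 0.36 for COL3A1. In that fit 3 collagen genes had an unadjusted p under 0.05, beside 1.35% of all genes in either direction. Leaving out 1 of the 6 libraries gave between 4 (without CL-CM-EE-IVF R4) and 12 (without CL-CM-EE-IVF R2) such genes, with 5 without CL-NC R4. The shares of all genes in these fits were 1.85%, 2.82% and 1.84%. Without the R4 treated library alone, the values were 0.61, 0.54 and 0.53.

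Of 31 matrix glycoproteins and proteoglycans tested, 8 were higher and 0 lower at an unadjusted p under 0.05, against 2.23% and 2.08% of all genes, and the median log2 fold change was 0.40. VCAN, a large proteoglycan of provisional matrix, was at 65.8, 18.4 and 13.02 CPM in the controls and 91.2, 38.5 and 19.1 CPM with embryo medium. Each number went the same way, and the R2 libraries of both groups were above all others. The log2 fold change was 0.72 (95% interval 0.25 to 1.20). FBLN1, a fibulin of elastic and basement membrane matrix, was at 16.6, 4.14 and 6.43 CPM in the controls and 21.4, 16.2 and 10.6 CPM with embryo medium. The R4 control was the lowest library and R4 showed the widest difference, and its log2 fold change was 0.93 (95% interval 0.26 to 1.61). VCAN was at 0.42 without the R4 treated library and FBLN1 at 0.54 without the R4 control. The count of such genes was 1 without R4 (beside 1.35% of all genes in either direction), 1 without CL-CM-EE-IVF R4 alone (1.85%) and 2 without CL-NC R4 (1.84%). It was 5 without CL-NC R2 (6.70%) or CL-CM-EE-IVF R5 (5.04%). Of 20 matrix proteases and inhibitors, 2 were higher at an unadjusted p under 0.05, against 2.23% of all genes. They were MMP2, a gelatinase, and MMP23, a membrane-anchored metalloproteinase. MMP2 was at 26.8, 17.9 and 15.4 CPM in the controls and 35.98, 27.8 and 17.3 CPM with embryo medium. MMP23 was at 2.41, 0.414 and 2.09 CPM in the controls and 4.08, 3.71 and 3.81 CPM with embryo medium. Its treated libraries lay close together above all controls, and the R4 control was far below the rest. Of 23 genes of collagen processing, the enzymes and chaperones that modify and cross-link collagen, 0 stood at an unadjusted p under 0.05 in either direction, with a median of 0.10.

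Markers of the cells that lie around vessels and in the stroma were also mostly above 0. Of 21 pericyte and smooth muscle markers tested, 8 were higher and 0 lower at an unadjusted p under 0.05, against 2.23% and 2.08% of all genes, with a median log2 fold change of 0.56. The medians within numbers were 0.53 in R2, 0.96 in R4 and 0.00 in R5. Of the 21, 19 were above 0 and 2 below, beside 9018 and 9921 of all 18939 genes. Members known from pericytes were mixed. Log2 fold changes were 0.77 for NOTCH3, 0.60 for CSPG4 and 0.28 for PDGFRB. They were 0.10 for MCAM, 0.06 for RGS5, -0.09 for KCNJ8 and -0.21 for ABCC9. TAGLN, an actin-binding protein of smooth muscle, was at 9.43, 19.6 and 11.5 CPM in the controls and 17.9, 73.3 and 12.2 CPM with embryo medium. The R4 treated library stood far above the other 5, R5 hardly differed, and the log2 fold change was 1.05 (95% interval 0.36 to 1.73) and became 0.49 without CL-CM-EE-IVF R4. ACTA2, smooth muscle actin, was at 34.3, 64.5 and 33.00 CPM in the controls and 51.2, 221 and 33.3 CPM with embryo medium, again with the R4 treated library alone at a high level. Its log2 fold change was 0.90 (95% interval 0.20 to 1.60) and became 0.27 without that library.

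MYLK, the kinase that starts smooth muscle contraction, was at 42.9, 44.2 and 71.4 CPM in the controls and 57.7, 123 and 85.2 CPM with embryo medium. All numbers went one way, R4 the most, and its log2 fold change was 0.75 (95% interval 0.26 to 1.23), or 0.41 without the R4 treated library. TPM2, a tropomyosin of the actin filament, was at 19.4, 22.6 and 41.9 CPM in the controls and 36.8, 75.7 and 41.7 CPM with embryo medium, and R5 was about equal. TPM1, another tropomyosin, was at 86.8, 107 and 259 CPM in the controls and 137, 319.5 and 267 CPM with embryo medium, and the R5 control was above the R2 treated library. Without R4, and without CL-CM-EE-IVF R4 alone, 0 of the 21 markers had an unadjusted p under 0.05, beside 1.35% and 1.85% of all genes. Without CL-NC R2 or CL-NC R4, 5 had one, beside 6.70% and 1.84% of all genes. In bulk tissue such as this, more cells of a type and more RNA per cell cannot be told apart.

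Of 17 fibroblast markers tested, 6 were higher and 0 lower at an unadjusted p under 0.05, against 2.23% and 2.08% of all genes, with a median log2 fold change of 0.66 (0.05 within R2, 1.36 within R4 and 0.28 within R5). This list shares 3 genes with the collagens and 4 with the matrix glycoproteins, so its count is no separate observation. Its members went both ways, 12 above 0 and 5 below, beside 9018 and 9921 of all 18939 genes. In all 3 numbers 8 were higher and 3 lower, beside 12.7% and 12.1% of all genes. Without overlap 1 was higher and 2 were lower, beside 2.41% and 3.32%. Those below 0 were PI16 (-0.80), FAP (-0.69), PDGFRL (-0.68), CD34 (-0.28) and TCF21 (-0.19). PDGFRA, the receptor for platelet-derived growth factors on stromal cells, was at 23.4, 4.002 and 14.96 CPM in the controls and 32.7, 23.5 and 24.7 CPM with embryo medium. The treated libraries were all above the controls, narrowly over the R2 control, and the R4 control was far lower than the rest. For PDGFRA the log2 fold change was 1.14 (95% interval 0.41 to 1.88), or 0.69 without the R4 control and 0.59 with all of R4 left out. The summed level of the fibroblast list was 847, 387 and 478 CPM in the controls and 1154, 1116 and 524 CPM with embryo medium, so the R4 control was the lowest of the 6 and the treated R4 library lay with R2. With means of 931 ± 353 CPM with embryo medium against 571 ± 243 CPM in the controls (SD, n = 3), the exact two-sided permutation p was 0.2. Over the 4 lists together, 26 of 86 different genes (30.2%) were higher at an unadjusted p under 0.05, against 2.23% of all genes, and 0 were lower. These lists were put together because their values were seen to be high, so the share describes that choice. The fibroblast count was 3 without CL-NC R4 and 2 with all of R4 left out, beside 1.84% and 1.35% of all genes in either direction.

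**Figure D2:**
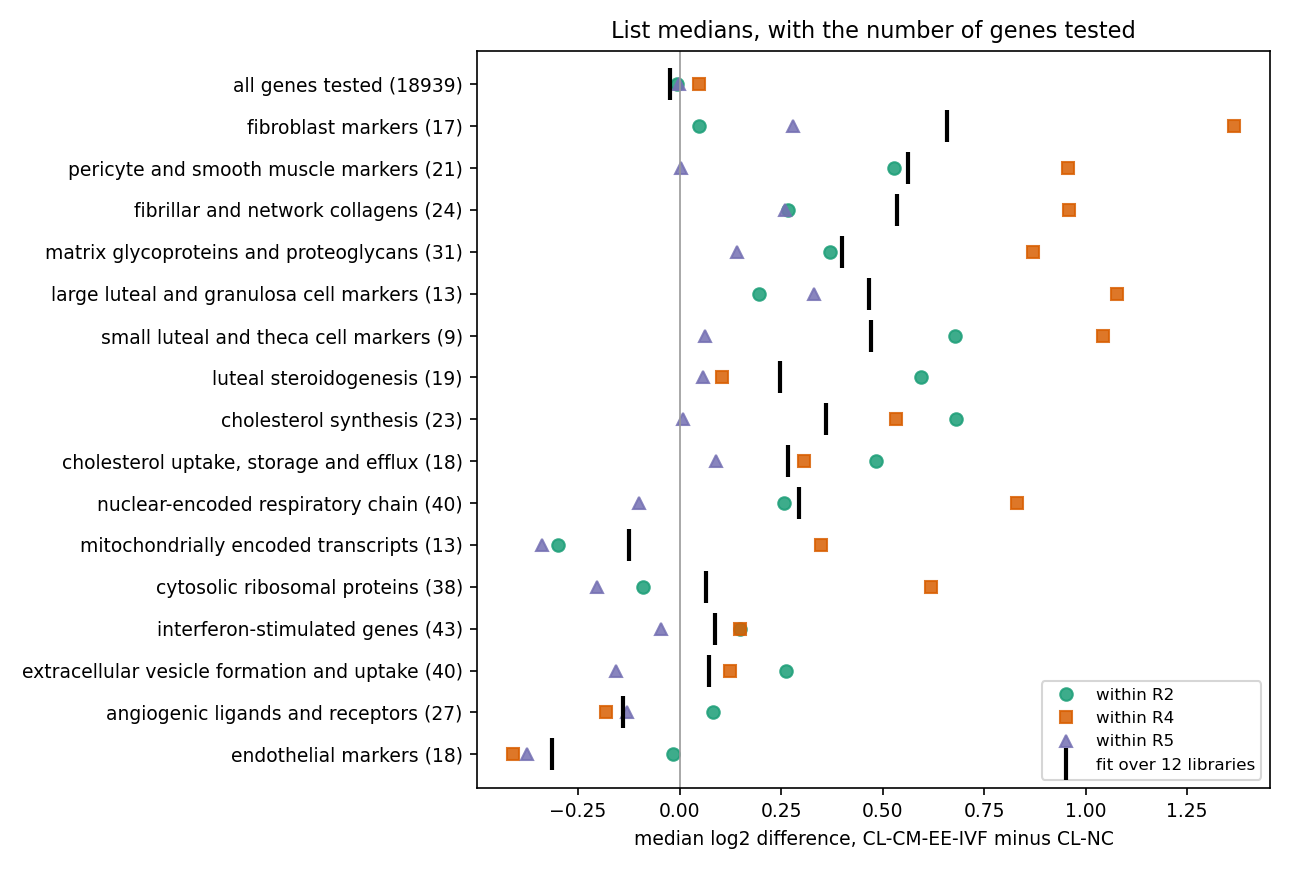
Median log2 difference between CL-CM-EE-IVF and CL-NC (horizontal axis) of 16 gene lists and of all genes tested, with the number of genes tested in brackets. Coloured points are differences within R2, R4 and R5, each from 1 library per group, and black bars are medians of the blocked fit, and the fibroblast list runs from 0.05 in R2 to 1.36 in R4.

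Genes of progesterone synthesis were above 0 mainly in R2, and its key enzymes in R2 and R4. Of 19 luteal steroidogenesis genes tested, 2 were higher and 0 lower at an unadjusted p under 0.05, against 2.23% and 2.08% of all genes, and the median log2 fold change was 0.25 (0.59 in R2, 0.10 in R4 and 0.06 in R5). FDXR, the reductase that passes electrons to the mitochondrial P450 enzymes, was at 20.3, 29.4 and 43.7 CPM in the controls and 34.7, 53.3 and 50.9 CPM with embryo medium. Each number went the same way, and the R5 control was above the R2 treated library. The log2 fold change was 0.61 (95% interval 0.18 to 1.04). NR5A1, the transcription factor of steroidogenic genes, was at 20.9, 24.5 and 49.4 CPM in the controls and 35.4, 41.3 and 51.6 CPM with embryo medium, and its log2 fold change was 0.52 (95% interval 0.09 to 0.95). It differed in R2 and R4, while R5 was close to equal.

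STAR, the carrier of cholesterol into mitochondria, was at 161, 211 and 191 CPM in the controls and 256, 527 and 144 CPM with embryo medium. The treated libraries were higher in R2 and R4 and lower in R5, and the log2 fold change was 0.43 (95% interval -0.45 to 1.30), an interval that holds 0. CYP11A1, which cleaves the cholesterol side chain, was at 315, 291 and 239 CPM in the controls and 504, 644 and 207 CPM with embryo medium. It followed the same split by number, and its log2 fold change was 0.47 (95% interval -0.27 to 1.21). HSD3B1, with the values given above, had groups that did not overlap, but the R5 pair differed little and the log2 fold change was 0.67 (95% interval -0.03 to 1.37). Without CL-NC R4 the values became -0.012 for STAR, 0.10 for CYP11A1 and 0.35 for HSD3B1.

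All 23 genes of cholesterol synthesis had a log2 fold change above 0, beside 9018 of all 18939 genes, with a list median of 0.36. In all 3 numbers 11 of them were higher, against 12.7% of all genes. At an unadjusted p under 0.05 stood 2, both higher, against 2.23% of all genes. SCAP, which escorts the sterol-sensing transcription factors SREBP to their activation, was at 27.03, 59.7 and 61.1 CPM in the controls and 52.6, 92.2 and 85.3 CPM with embryo medium. All numbers went one way, R2 the most on the log2 scale, and both R2 libraries were the lowest of their groups. The log2 fold change was 0.70 (95% interval 0.29 to 1.11). FDPS, the farnesyl diphosphate synthase on the way to sterols, was at 49.9, 61.1 and 94.1 CPM in the controls and 80.4, 111 and 132 CPM with embryo medium, and its log2 fold change was 0.66 (95% interval 0.08 to 1.24), or 0.40 without the R4 control. INSIG1, the sterol sensor that holds SCAP back, was at 41.9, 194 and 98.6 CPM in the controls and 64.99, 429 and 94.4 CPM with embryo medium. Both R4 libraries were far above the rest and R5 was about equal. The median within numbers was 0.68 in R2, 0.53 in R4 and 0.01 in R5. The number of genes at an unadjusted p under 0.05 was 10 when the R5 control was left out, beside 6.44% of all genes. It was 5 when the R4 treated library was left out, beside 1.85% of all genes. It was 1 when the R4 control or the R2 or R5 treated library was left out. In those fits 1.84%, 2.82% and 5.04% of all genes had such a p in either direction.

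Of 18 genes of cholesterol uptake, storage and efflux, 1 was higher at an unadjusted p under 0.05, against 2.23% of all genes. The median log2 fold change was 0.27. There were 7 when the R5 control was left out and 2 when the R4 treated library was, beside 6.44% and 1.85% of all genes in either direction. With all libraries that gene was LRP1, an endocytic receptor for lipoproteins and proteases, at 62.4, 85.4 and 182 CPM in the controls and 104, 218 and 199 CPM with embryo medium. R4 differed most and R5 least, and its log2 fold change was 0.76 (95% interval 0.29 to 1.24), or 0.50 without the R4 treated library. SCARB1, the receptor that takes cholesterol from HDL, was at 274, 297 and 279 CPM in the controls and 406, 485 and 311 CPM with embryo medium. The controls lay close together and below each treated library, and the log2 fold change was 0.46 (95% interval -0.06 to 0.97), or 0.23 without the R4 control. APOA1, the main protein of HDL, was at 82.96, 122 and 147 CPM in the controls and 149, 494 and 157 CPM with embryo medium. Its treated libraries were all above the controls, R4 by far.

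Hormone receptors went both ways. Of 22 tested, 2 were higher and 1 was lower at an unadjusted p under 0.05, against 2.23% and 2.08% of all genes, and the median log2 fold change was -0.07. LHCGR, the receptor for luteinising hormone that maintains luteal progesterone output, was at 55.97, 67.2 and 185 CPM in the controls and 98.3, 138 and 252 CPM with embryo medium. Every number went the same way, and both R5 libraries were above all others. The log2 fold change was 0.76 (95% interval 0.18 to 1.34). GHR, the growth hormone receptor, was at 8.28, 15.1 and 9.83 CPM in the controls and 13.98, 17.3 and 15.1 CPM with embryo medium, and its log2 fold change was 0.52 (95% interval 0.10 to 0.95). MC2R, the corticotropin receptor, was at 1.15, 1.29 and 0.575 CPM in the controls and 0, 0.202 and 0.428 CPM with embryo medium. All treated libraries were lower than all controls, at levels of few reads. PTGFR, through which prostaglandin F2alpha ends luteal life, was at 105, 151 and 116 CPM in the controls and 206, 389 and 114 CPM with embryo medium. It was higher in R2 and R4 and level in R5, and the log2 fold change was 0.71 (95% interval -0.04 to 1.45), or 0.33 without the R4 control.

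Of 13 genes of prostaglandin synthesis and transport, 9 were below 0, beside 9921 of all 18939 genes. The median log2 fold change of the list was -0.23. At an unadjusted p under 0.05, 1 was lower, against 2.08% of all genes. It was TBXAS1, thromboxane synthase, at 15.4, 39.9 and 18.98 CPM in the controls and 10.96, 13.9 and 17.8 CPM with embryo medium. The R4 control was the only library at that level, and the R5 pair hardly differed.

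Genes of the vessel wall's inner lining were mostly below 0. Of 18 endothelial markers tested, 17 had a log2 fold change below 0, beside 9921 of all 18939 genes. The median of the 18 was -0.31 (-0.02 in R2, -0.41 in R4 and -0.37 in R5). In all 3 numbers 6 were lower, against 12.1% of all genes, and 0 stood at an unadjusted p under 0.05. PECAM1, an adhesion molecule of endothelial junctions, was at 108, 49.5 and 83.5 CPM in the controls and 98.04, 35.6 and 68.01 CPM with embryo medium. Each treated library was a little below the control of its number, by far less than the libraries of a group differed, and its log2 fold change was -0.32 (95% interval -0.85 to 0.21), or -0.14 without the R4 control. KDR, the main receptor for VEGF, was at 479.7, 446 and 483 CPM in the controls and 495, 309 and 353 CPM with embryo medium. R2 was level and R4 and R5 were lower, and its log2 fold change was -0.31 (95% interval -0.74 to 0.12), or -0.18 without the R4 treated library. EMCN, a sialomucin of endothelium, was at 130.00, 364 and 237 CPM in the controls and 143, 152 and 167 CPM with embryo medium. The R4 control was the highest and the treated libraries lay close together. VWF, the adhesive protein of endothelium and platelets, was the 1 marker above 0, at 169.9, 46.9 and 74.3 CPM in the controls and 169, 95.4 and 90.7 CPM with embryo medium.

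The 18 markers summed to 3743, 2093 and 2079.7 CPM in the controls and 3573, 1453 and 1576 CPM with embryo medium. Both R2 libraries were higher than the other 4, and within each number the treated library was lower than the control. The exact two-sided permutation test, which leaves the R number out of account here and for all marker sums, gave p = 0.5. Without CL-NC R2, 7 of the 18 had an unadjusted p under 0.05 and were lower. In that fit 6.70% of all genes had one in either direction, and 2.08% of all genes were higher. VEGFA, the angiogenic ligand, was at 94.3, 93.8 and 49.05 CPM in the controls and 109, 119 and 56.3 CPM with embryo medium, and its log2 fold change was 0.24 (95% interval -0.30 to 0.79), or 0.065 without the R4 control. Of 27 angiogenic ligands and receptors, 1 was higher and 2 were lower at an unadjusted p under 0.05, against 2.23% and 2.08% of all genes. When the R2 control was left out, 7 were lower, beside 6.70% of all genes in either direction. The one that was higher was PDGFRA, described above, and the lower ones were 2 of its family's ligands. PDGFC was at 178, 500.2 and 280.3 CPM in the controls and 171, 200.04 and 186 CPM with embryo medium. Its R4 and R5 controls were above all treated libraries and R2 was level, and its log2 fold change was -0.67 (95% interval -1.21 to -0.13), or -0.43 without the R4 control. PDGFD was at 110.4, 219.6 and 234 CPM in the controls and 107, 126 and 166 CPM with embryo medium, and its log2 fold change was -0.46 (95% interval -0.85 to -0.06). Of 7 lymphatic endothelial markers, CCL21, a chemokine that draws lymphocytes and dendritic cells, and MMRN1, a multimerin, were higher at an unadjusted p under 0.05, against 2.23% of all genes. Their log2 fold changes were 0.58 and 0.62, and MMRN1 was at 0.35 without the R4 treated library. CCL21 was at 24.7, 3.91 and 30.02 CPM in the controls and 39.1, 7.27 and 34.3 CPM with embryo medium, so both R4 libraries were lower than all others.

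The interferon-stimulated genes answer to conceptus interferon in ruminants. Of 43 tested, 0 stood at an unadjusted p under 0.05 in either direction, 8 were higher and 5 lower in all 3 numbers, beside 12.7% and 12.1% of all genes, and the median log2 fold change was 0.09. Without CL-NC R5, 3 were higher at that p, against 3.01% of all genes in that fit. ISG15, a ubiquitin-like modifier, was at 19.3, 21.1 and 21.9 CPM in the controls and 19.8, 36.5 and 22.5 CPM with embryo medium. R2 and R5 were level between groups and R4 was higher, and its log2 fold change was 0.26 (95% interval -0.23 to 0.76). MX1, an antiviral GTPase, was at 17.2, 113 and 87.9 CPM in the controls and 22.98, 151 and 77.9 CPM with embryo medium. Both R2 libraries were far below the others, so libraries differed more by number than by group, and the log2 fold change was 0.23 (95% interval -0.24 to 0.69). RSAD2, the antiviral enzyme viperin, was at 3.11, 6.76 and 3.82 CPM in the controls and 4.29, 7.15 and 5.52 CPM with embryo medium, and its log2 fold change was 0.36 (95% interval -0.44 to 1.16). ISG15 was at 0.0035 without the R4 control, MX1 at 0.036 without the R2 treated library and RSAD2 at 0.08 without the R2 treated library. IFITM1, a membrane protein that blocks virus entry, was the 1 member of the list whose groups did not overlap, at 1.05, 1.29 and 1.15 CPM in the controls and 2.08, 1.66 and 2.31 CPM with embryo medium. Over all genes, 2.41% were higher without overlap.

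Of 19 antigen presentation genes, 0 were higher and 3 lower at an unadjusted p under 0.05, against 2.23% and 2.08% of all genes. NLRC5, the activator of MHC class I genes, was at 59.9, 115 and 80.6 CPM in the controls and 53.7, 51.03 and 54.9 CPM with embryo medium. The treated libraries lay close together below all controls, and its log2 fold change was -0.66 (95% interval -1.24 to -0.08), or -0.40 without the R4 control. The other 2 were the MHC class II chains BOLA-DOB, at 0.401, 3.496 and 6.38 CPM in the controls and 0.0425, 0.444 and 2.01 CPM with embryo medium, and BOLA-DOA, at 0.251, 1.38 and 2.09 CPM in the controls and 0.212, 0.242 and 0.257 CPM with embryo medium. Both were lower within each number but overlapped between groups, at levels of few reads. The count of 3 became 0 on leaving out the R4 control, the R5 control, the R2 treated library or the R4 treated library. CD163, a scavenger receptor of macrophages, was the 1 of 16 macrophage and monocyte markers that was higher at an unadjusted p under 0.05, against 2.23% of all genes. It was at 3.06, 3.13 and 4.97 CPM in the controls and 7.94, 17.6 and 4.796 CPM with embryo medium. The R4 treated library was the highest, R5 was level, and the log2 fold change was 1.36 (95% interval 0.49 to 2.23) and became 0.67 without R4. CD68, a lysosomal protein of macrophages, was at 2.71, 4.83 and 5.02 CPM in the controls and 4.29, 5.17 and 4.41 CPM with embryo medium, and its log2 fold change was 0.17 (95% interval -0.43 to 0.77). Of 18 T and NK cell markers, 0 were higher and 1 lower at an unadjusted p under 0.05, against 2.23% and 2.08% of all genes. That 1 was CD4, the T helper cell co-receptor, at 1.404, 2.48 and 2.04 CPM in the controls and 0.425, 1.01 and 1.07 CPM with embryo medium. Its treated libraries lay below all controls. The list went both ways, 8 above 0 and 10 below. In all 3 numbers 3 were higher and 2 lower, beside 12.7% and 12.1% of all genes. Without overlap 1 was higher and 2 were lower, beside 2.41% and 3.32%. Of 23 complement genes, C4A (0.46) and SERPING1, the C1 inhibitor (0.61), had log2 fold changes above 0 and CFD, complement factor D (-1.66), one below 0, each at an unadjusted p under 0.05. Over all genes, 2.23% were higher and 2.08% lower at that p. C4A was at 0.30 without the R2 treated library and SERPING1 at 0.40 without the R4 treated library. Of 24 inflammation and NF-kB genes and 27 immediate early genes, 0 reached it in either direction.

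Small extracellular vesicles give the series its title. Of 40 genes of vesicle formation and uptake, 0 stood at an unadjusted p under 0.05, and the median log2 fold change was 0.07. The members with the lowest p were ANXA6, a membrane-binding annexin, at 28.3, 22.2 and 34.4 CPM in the controls and 35.3, 49.3 and 33.9 CPM with embryo medium, and SDCBP, the syntenin that sorts vesicle cargo, at 168, 271 and 125 CPM in the controls and 157, 162 and 93.2 CPM with embryo medium. ANXA6 was higher in R2 and R4 and about equal in R5, while SDCBP was lower in each number, with the R4 control highest. Their intervals ran from -0.03 to 0.97 and from -0.89 to 0.04.

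Nuclear and mitochondrial genes of respiration lay mostly on opposite sides of 0 in the fit over 12 libraries, but not within each number. Of 40 nuclear-encoded respiratory chain genes, 37 had a log2 fold change above 0, beside 9018 of all 18939 genes. The median of the 40 was 0.30, and 0 stood at an unadjusted p under 0.05. Of 13 mitochondrially encoded transcripts, 12 were below 0, beside 9921 of all 18939 genes, with a list median of -0.12. The nuclear list differed most in R4, where its median was 0.83, and the medians within the other numbers were 0.26 in R2 and -0.10 in R5. The mitochondrial list had medians of -0.30 in R2, 0.35 in R4 and -0.34 in R5. Both medians thus lay above 0 in R4 and below 0 in R5. Without CL-NC R5, 9 of the 40 nuclear genes were higher at an unadjusted p under 0.05, against 3.01% of all genes in that fit. The median of 38 cytosolic ribosomal proteins was likewise highest in R4, at -0.09 in R2, 0.62 in R4 and -0.20 in R5, and their summed level was 3022 CPM in the R4 control, the lowest of the 12 libraries. Without that R4 control the median was -0.01 for the respiratory list and -0.15 for the ribosomal proteins. NDUFV1, which belongs to complex I, had levels of 10.9, 8.92 and 11.5 CPM in the controls and 16.7, 16.8 and 12.9 CPM with embryo medium. All treated libraries were above all controls, and its log2 fold change was 0.53 (95% interval -0.06 to 1.13), or 0.27 without the R4 control. NDUFA4, an accessory subunit of cytochrome c oxidase, was at 25.9, 15.5 and 24.7 CPM in the controls and 41.3, 42.4 and 23.1 CPM with embryo medium, with R5 level.

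Among 30 genes of TGF-beta and activin signalling, 2 were higher at an unadjusted p under 0.05, against 2.23% of all genes. BMP4, a ligand of the TGF-beta family, was 1 of them, at 2.66, 1.98 and 2.35 CPM in the controls and 3.06, 5.33 and 3.94 CPM with embryo medium. Every treated library was above every control, and its log2 fold change was 0.81 (95% interval 0.11 to 1.53), or 0.52 without the R4 treated library. Of 30 heat shock and unfolded protein genes, 0 stood at an unadjusted p under 0.05. HSPH1, a heat shock chaperone with the lowest p among them, was at 374, 2078 and 1318 CPM in the controls and 392, 1049.8 and 1010.4 CPM with embryo medium, so it differed between numbers more than between groups. Lists of the cell cycle (32 genes), apoptosis (30) and the insulin-like growth factor system (16) also held 0 genes at an unadjusted p under 0.05 in either direction. Of 29 hypoxia and glycolysis genes 0 were higher and 1 was lower, and of 28 antioxidant genes 1 was higher and 0 were lower, against 2.23% and 2.08% of all genes.

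Marker lists were read to show which cells the tissue held. The 9 small luteal and theca cell markers summed to 1149, 1360.2 and 1688 CPM in the controls and 1995, 3192 and 1737 CPM with embryo medium. All 3 treated libraries were above all controls, R5 by a narrow margin, and the exact two-sided permutation p was 0.1, the smallest possible. The sum is no separate observation, since 6 of the 9 (HSD3B1, CYP11A1, STAR, APOA1, LHCGR and NR5A1) are described above. HSD3B1, CYP11A1, STAR and NR5A1 are also on the steroidogenesis list, and both luteal cell types make progesterone. The sum therefore does not mark small luteal cells alone. For INSL3, a peptide hormone of theca cells, and for PTCH1 and GLI1, a receptor and a transcription factor of hedgehog signalling, the log2 fold changes were 0.05, -0.19 and -0.69. The 13 large luteal and granulosa cell markers summed to 474, 529 and 417 CPM in the controls and 698, 875 and 410.2 CPM with embryo medium, with R5 level and an exact permutation p of 0.4. FOXL2, a granulosa cell transcription factor, was the 1 member at an unadjusted p under 0.05, against 2.23% of all genes that were higher. It was at 2.91, 3.73 and 2.77 CPM in the controls and 4.29, 7.63 and 4.58 CPM with embryo medium. Its treated libraries were all above its controls. OXT, the oxytocin gene that bovine luteal cells transcribe and that was picked after its values were seen, was at 137, 9.02 and 6.59 CPM in the controls and 207, 40.9 and 7.07 CPM with embryo medium. Both R2 libraries were far above the others, and each treated library was above the control of its number.

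The pericyte and smooth muscle markers summed to 1201, 1202 and 1830.3 CPM in the controls and 1724, 2289 and 1769 CPM with embryo medium (exact permutation p = 0.3), with R5 slightly lower and R2 and R4 higher in the treated library. The 16 macrophage and monocyte markers summed to between 45.8 and 61.2 CPM in CL-NC and between 51.0 and 117.7 CPM in CL-CM-EE-IVF, and the treated R4 library alone was above the others. The 18 T and NK cell markers lay between 16.4 and 33.5 CPM over the 6 libraries. The 8 red blood cell markers were all below 0, beside 9921 of all 18939 genes. They summed to 45.4, 4.19 and 6.54 CPM in the controls and 34.2, 4.68 and 6.12 CPM with embryo medium, with both R2 libraries highest. The 9 epithelial markers summed to between 11.1 and 32.1 CPM in CL-NC and between 14.9 and 68.1 CPM in CL-CM-EE-IVF, again with the treated R4 library highest. Of 14 trophoblast and embryo markers, 10 were absent from the counts and 4 were tested. Their sums of 30.9 to 64.5 CPM in CL-NC and 35.7 to 53.8 CPM in CL-CM-EE-IVF overlapped. Most of each sum was the gene PAG1, at 39.8, 62.0 and 26.4 CPM in the controls and 50.8, 45.9 and 30.5 CPM with embryo medium. The sums therefore follow this gene and do not show trophoblast RNA. In the lists of B and plasma cells (7 genes), stromal and endometrial cells (7), granulocytes and mast cells (7), adipocytes (5) and nerve and glia (4), 0 genes were higher at an unadjusted p under 0.05, and 1 gene was lower in each of the last 3, against 2.08% of all genes. The part of these cell types in the gene differences was not tested.

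**Figure D3:**
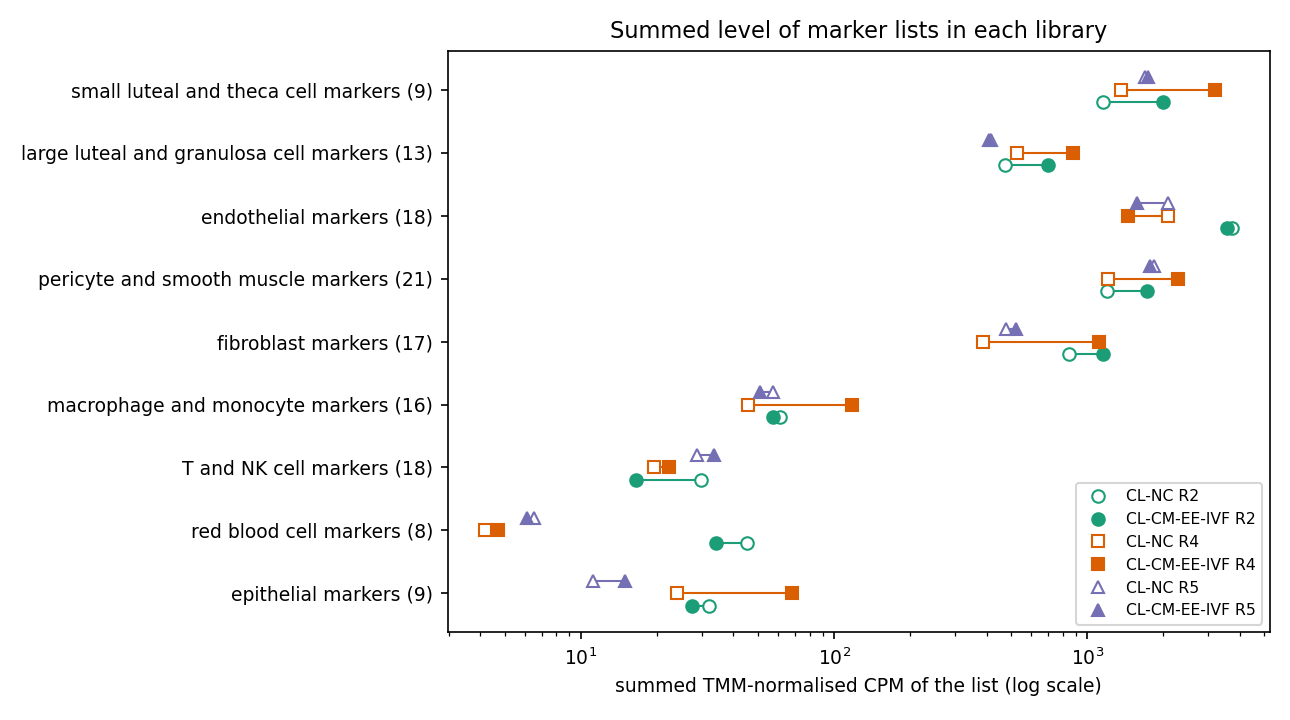
Summed TMM-normalised CPM (horizontal log axis) of 9 marker lists in the 3 CL-NC libraries (open symbols) and the 3 CL-CM-EE-IVF libraries (filled symbols), with a line joining the libraries of one R number and the number of genes in brackets. The fibroblast sum of R4 goes from 387 to 1116 CPM, while the red blood cell sums separate R2 from the other numbers.

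The same 3 treated libraries were set against medium of explants without an embryo and with an in vivo embryo, so these comparisons share the CL-CM-EE-IVF libraries with the one above. Against CL-CM-EE, edgeR's quasi-likelihood test with Benjamini-Hochberg adjustment called 0 of 18939 genes (0%), with a lowest adjusted p of 0.947, and 976 genes (5.15%) stood at an unadjusted p under 0.05. Of these, 616 were higher in CL-CM-EE-IVF (3.25%). Against CL-CM-EE-AI it called 0 (0%), with a lowest adjusted p of 1, and 163 genes (0.861%) stood at an unadjusted p under 0.05.

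The matrix genes were also mostly higher than in tissue given medium of explants without an embryo. COL1A1 had a mean of 141 ± 40.01 CPM without an embryo (CL-CM-EE) and 173 ± 75.8 CPM with an in vivo embryo (CL-CM-EE-AI; SD, n = 3), both between CL-NC and CL-CM-EE-IVF. Its log2 fold change in CL-CM-EE-IVF was 0.90 (95% interval 0.19 to 1.62) against CL-CM-EE and 0.65 (95% interval -0.07 to 1.36) against CL-CM-EE-AI. For CDH11 the values were 0.80 (95% interval 0.44 to 1.15) and 0.36 (95% interval 0.01 to 0.71). Against CL-CM-EE, 8 of 24 collagens, 8 of 31 matrix glycoproteins, 8 of 21 pericyte and smooth muscle markers and 7 of 17 fibroblast markers were higher at an unadjusted p under 0.05, beside 3.25% of all genes, and 0 of each list were lower. The list medians against CL-CM-EE-AI were 0.29 for collagens, 0.21 for matrix glycoproteins, 0.22 for smooth muscle and 0.33 for fibroblast markers, beside -0.04 over all genes.

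Luteal genes were compared with the other media in the same way. LHCGR was at 199 ± 118 CPM after the in vivo embryo and 96.3 ± 64.7 CPM without an embryo (SD, n = 3), and its log2 fold change in CL-CM-EE-IVF was -0.21 (95% interval -0.79 to 0.37) and 0.84 (95% interval 0.26 to 1.42) against them. HSD3B1 had log2 fold changes of -0.18 (95% interval -0.88 to 0.53) against CL-CM-EE-AI and 0.69 (95% interval -0.02 to 1.39) against CL-CM-EE. The median of cholesterol synthesis was 0.03 against CL-CM-EE-AI and 0.47 against CL-CM-EE, and that of luteal steroidogenesis was -0.08 and 0.10. Of the genes that were lower, CDH23 had a log2 fold change of -1.0 (95% interval -1.73 to -0.26) against CL-CM-EE-AI and -0.95 (95% interval -1.68 to -0.22) against CL-CM-EE.

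**Figure D4:**
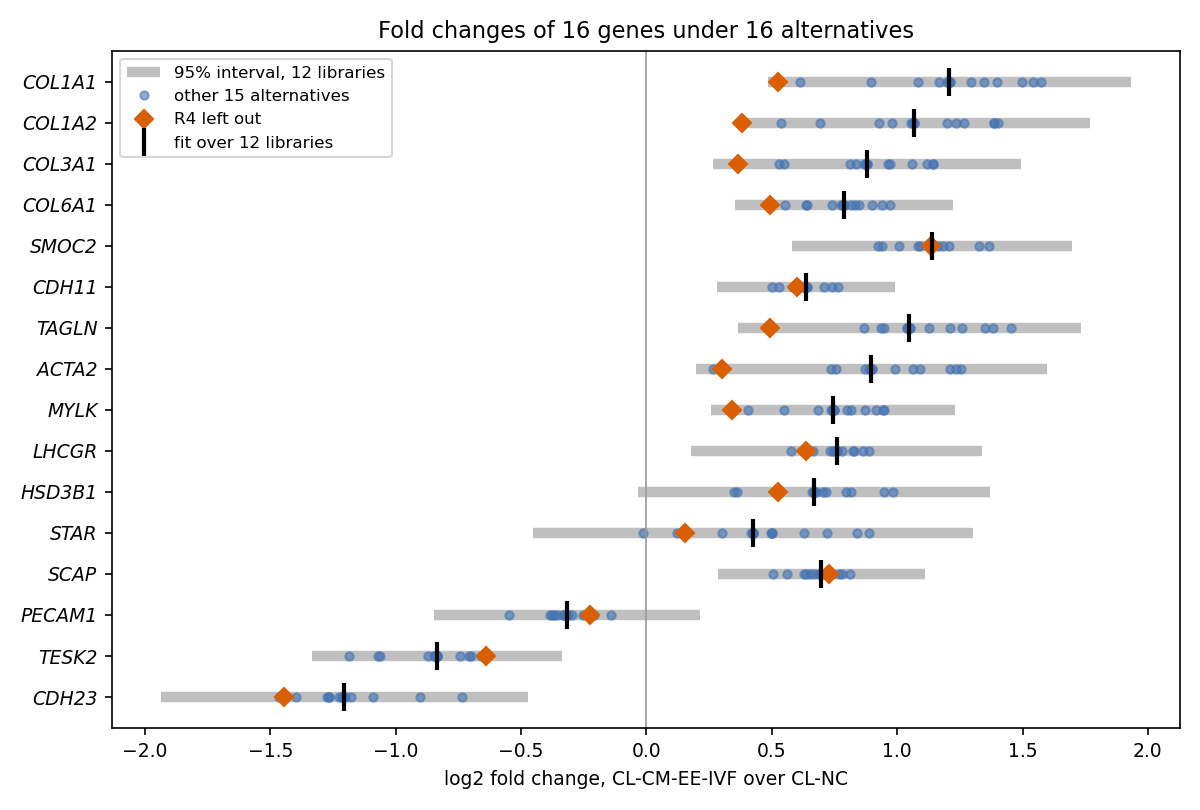
Log2 fold change between CL-CM-EE-IVF and CL-NC (horizontal axis) of 16 genes in the fit over 12 libraries (black bars, with grey 95% intervals) and under 16 alternative fits (points, with R4 left out as diamonds). STAR is the 1 gene with a point below 0 against a bar above it, at -0.012, and the smooth muscle and collagen values are lowest with R4 left out or without CL-CM-EE-IVF R4.

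Most list differences were widest in R4. Over the 42 lists, the median difference within a number was largest in size in R4 for 24, in R2 for 13 and in R5 for 5. With R4 left out, 255 genes had an unadjusted p under 0.05, against 817 with all numbers, 1185 without R2 and 880 without R5.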

How the data were processed

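RNA was sequenced from corpus luteum samples whose labels give polyA RNA, extraction of total RNA with a column kit and treatment with DNase. The authors deposited whole read counts per gene, and featureCounts, STAR, cutadapt, Trim Galore and DESeq2 are listed in the submitters' processing notes, while the labels state no version, genome build, annotation or strand setting. As deposited by the authors, the corpus luteum columns held 0 fractional values, so none holds expected counts, and all were used unchanged. Each gene had at least 36 counts in sum, so the table had been filtered, and 17399 of 19112 gene names (91.0%) match a current RefSeq symbol. The labels list 20 corpus luteum samples for 12 columns, and each column was used as 1 library. Of 12 pairs of libraries within groups, 0 were identical.

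All 12 libraries entered 1 model with group and R number. Genes were kept with filterByExpr by group (18939 of 19112), scaled by TMM and tested with edgeR's quasi-likelihood F test, with Benjamini-Hochberg adjustment over all genes tested and a threshold of 0.05. The 95% intervals come from that fit. Differences within an R number are log2 CPM differences with a prior count of 2, from 1 library per group. Gene lists (26 pathway and 16 marker lists) are described by counts and medians without a test, and sums of a list were compared with exact two-sided permutation tests. The rule named, per direction, the 8 genes with the lowest p that have a symbol, a group mean of 1 CPM or more and 1 direction in all 3 numbers, up to 4 members per list, and 18 luteal, matrix, vessel and interferon genes in any case. The comparison, its lists and this rule were chosen with earlier results of these data known. The pipeline was tested on simulated data. Alternatives were no block, the 6 libraries alone, DESeq2, DESeq2 size factors, and mitochondrial and ribosomal RNA left out. Others were no filter, a filter at 1 CPM in 3 libraries, and each of the 6 libraries of the comparison left out in turn. The 4 libraries of each R number were also left out, a setting added after the data were seen. Versions were edgeR 4.0.16, DESeq2 1.42.0 and limma 3.58.1 in R 4.3.3, and matplotlib 3.10.9 in Python 3.11.15. A gene that the naming rule covers is not reported here, and it remains in the counts.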

Additional observations from a re-analysis of the deposited data

How the results depend on the processing

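The number of genes past the adjusted threshold was 0 in the fit over 12 libraries and in all 16 alternatives, with lowest adjusted p-values between 0.306 (without CL-NC R4) and 1 by edgeR and 0.335 by DESeq2. The number at an unadjusted p under 0.05 was 817. It was 281 with no replicate block and 255 with R4 left out. Leaving out 1 library gave between 351 (without CL-NC R4) and 1277 (without CL-NC R2), with 353 without CL-CM-EE-IVF R4, 539 without CL-CM-EE-IVF R2 and 1229 without CL-NC R5. The other alternatives gave between 587 (the 6 libraries alone) and 1185 (R2 left out), and DESeq2 979. The cause was not tested. With no block, 1 collagen gene, 2 matrix glycoproteins, 2 smooth muscle markers and 2 fibroblast markers had an unadjusted p under 0.05, beside 1.48% of all genes.

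The R number was used as a block because the comparison is defined with it, and the labels do not say what it pairs. After centring on group means, the correlation across genes of same-numbered CL-NC and CL-CM-EE-IVF libraries was 0.0861 in R2, 0.25 in R4 and 0.14 in R5, so 2 of 3 pairs were over 0.1, and genes are not independent replicates.

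Of 77 genes, 75 had the same direction in all alternatives that tested them. The rule took many of them by low p and by direction, so this count is no sign of stability. Leaving out 1 library moved 46 of the 77 log2 fold changes by over 1.5 times or across 0, and for 40 of these the value nearest 0 came without an R4 library. The cause was not tested. STAR ran from -0.012 (without CL-NC R4) to 0.84 over the fits that leave out 1 library. CD68 ran from -0.073 (without CL-NC R2) to 0.33, and was at -0.035 with R2 left out. At 3 libraries per group, log2 differences smaller than the 95% half-width, a median of 0.77, could not be told from 0.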
